A study of Homo sapiens with 16 samples.

Results

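Stem and progenitor cell markers were examined in RNA-seq of t(8;21)-positive acute myeloid leukaemia (AML) cell lines. The markers are 9 genes taken by their symbols, *CD34*, *PROM1*, *ANGPT1*, *MSI2*, *SPINK2*, *MEIS1*, *MN1*, *CD38* and *CD33*, out of the 60357 genes in the tables of the in vitro libraries. Kasumi-1 and SKNO-1 are human AML lines in which the translocation fuses *RUNX1* to *RUNX1T1* (*ETO*), and the fusion protein RUNX1/ETO is the target of the study. Kasumi-1 was grown in medium with foetal bovine serum, and SKNO-1 in medium that also held the growth factor GM-CSF. Cells of both lines, labelled as of wild-type genotype, received 2 µg/ml of lipid nanoparticles (LNPs) for 24 h and were washed and harvested on day 3. The LNPs carried siRE-mod, a chemically modified siRNA against the fusion transcript, or siMM-mod, the control with mismatched bases. Each of the 4 combinations of line and siRNA has 3 libraries, 12 in all, out of 16 in the series. The other 4 libraries, 2 labelled siMM-mod and 2 labelled siRE-mod, come from Kasumi-1 cells recovered from treated RG mice. Their tables list all 9 markers at 0 and place between 0.01997% and 0.0335% of the reads on genes, so they give no level for any marker and were not used further.

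Haematopoietic stem cells give rise to progenitors that lose self-renewal as they commit to a lineage, and surface antigens follow this order. *CD34* encodes a sialomucin of stem and early progenitor cells, and *CD38* encodes an ectoenzyme that uses NAD and that primitive CD34+ cells carry little of. *CD33* encodes a sialic acid-binding receptor (Siglec) of committed myeloid cells. *PROM1* encodes CD133, a pentaspan membrane glycoprotein of primitive cells. *ANGPT1* encodes a ligand of the TIE2 receptor (gene *TEK*), *MSI2* an RNA-binding protein that binds mRNAs such as *NUMB*, *MEIS1* a homeodomain partner of HOXA9 and PBX3, *MN1* a transcriptional co-regulator, and *SPINK2* a serine protease inhibitor.

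The bases upstream of *CD34*, *CD38* and *CD33* are shown because these surface antigens separate the libraries most clearly or differ between libraries with more and less *RUNX1T1*. Each stretch holds the 200 bases directly before the gene on its own strand, 5′ to 3′, with the gene's ends as in the deposited tables, and overlaps 0 exons of GENCODE release 44. They were read from the GRCh38 reference and not from these cells. Capitals mark CG pairs, the bases at which DNA methylation occurs, of which *CD34* has 3, *CD38* has 3 and *CD33* has 2. The *CD34* stretch lies wholly upstream of the 250 bases before the start of *CD34* in RefSeq, and those hold 14 CG pairs. For *CD38* and *CD33* the 250 bases before the RefSeq start overlap the stretch and hold 3 and 2.
CD34, minus strand, chr1:207911403-207911602: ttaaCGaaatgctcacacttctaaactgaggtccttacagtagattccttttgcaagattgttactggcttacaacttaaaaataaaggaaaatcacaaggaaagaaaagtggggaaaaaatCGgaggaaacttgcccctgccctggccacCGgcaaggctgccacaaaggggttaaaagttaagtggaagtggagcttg
CD38, plus strand, chr4:15778075-15778274: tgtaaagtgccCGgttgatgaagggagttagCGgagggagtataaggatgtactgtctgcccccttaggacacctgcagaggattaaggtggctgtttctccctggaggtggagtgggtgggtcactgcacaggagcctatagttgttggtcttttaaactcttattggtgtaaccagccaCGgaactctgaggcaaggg
CD33, plus strand, chr19:51224864-51225063: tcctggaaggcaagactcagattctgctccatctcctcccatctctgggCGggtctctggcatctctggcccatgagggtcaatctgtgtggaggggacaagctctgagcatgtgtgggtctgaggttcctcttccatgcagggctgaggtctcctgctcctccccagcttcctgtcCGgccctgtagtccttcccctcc

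The core letters TGTGGT, which RUNX proteins recognise, were searched on both strands (reverse complement ACCACA) in the 250 bases before each start in RefSeq (GRCh38.p14). RefSeq windows were found for 7 of the 9 markers, 12 windows in all. A match was present in 1 of the 12 windows, that of *MEIS1*, with its first base 169 bases before the start. Of the 35116 windows of all genes, 10.98% held one. No match says only that these letters are not in this window. The *MEIS1* window overlaps the gene as the deposited tables delimit it and has the match in capitals.
MEIS1, plus strand, chr2:66434875-66435124: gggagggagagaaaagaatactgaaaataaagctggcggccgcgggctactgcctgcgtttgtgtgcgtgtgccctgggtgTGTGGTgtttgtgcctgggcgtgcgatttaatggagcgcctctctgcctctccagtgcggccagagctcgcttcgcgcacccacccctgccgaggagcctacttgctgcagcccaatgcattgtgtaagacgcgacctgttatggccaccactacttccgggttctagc

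The libraries held between 60559466 and 147990959 counts on genes. *RUNX1T1*, whose reads include those of the fusion transcript, served as the check of the labels, in CPM (reads on the gene scaled by the library's counts on genes). Libraries labelled siMM-mod had 280.6, 79.2 and 150.4 CPM of *RUNX1T1* in Kasumi-1 (replicates 1, 2 and 3) and 308.8, 253.9 and 134.0 CPM in SKNO-1. Those labelled siRE-mod had 52.7, 173.6 and 41.3 CPM in Kasumi-1 and 127.5, 164.9 and 41.9 CPM in SKNO-1. The labelled groups thus overlapped in both lines, and *RUNX1T1* went against the label of some libraries, so each library is called by its label, and a direction between siRNAs is one between labels. Correlations of log2 CPM over all genes were between 0.960 and 0.996 among the 6 libraries with *CD34* above 100 CPM, between 0.955 and 0.995 among the 6 with *CD34* below 1 CPM, and between 0.798 and 0.837 for 1 library of each kind. The 6 libraries rich in *CD34* were those labelled Kasumi-1 siMM-mod replicates 1 and 2, SKNO-1 siMM-mod replicates 1, 2 and 3 and SKNO-1 siRE-mod replicate 1. The 6 poor in it were those labelled Kasumi-1 siMM-mod replicate 3, Kasumi-1 siRE-mod replicates 1, 2 and 3 and SKNO-1 siRE-mod replicates 2 and 3. Each set includes both labelled lines and both labelled siRNAs. Of the libraries labelled siMM-mod, Kasumi-1 replicate 2 (79.2 CPM) and SKNO-1 replicate 3 (134.0 CPM) were among the 3 *CD34*-rich ones with least *RUNX1T1*. Of those labelled siRE-mod, Kasumi-1 replicate 2 (173.6 CPM) and SKNO-1 replicate 2 (164.9 CPM) were among the 3 *CD34*-poor ones with most. Reading the libraries by *CD34* and then by *RUNX1T1* is a description, for which no mean and no test is given. Myeloid identity was present in both sets, with *MPO* between 9501 and 19319 CPM in the *CD34*-rich and between 1846 and 5792 CPM in the *CD34*-poor libraries. *PTPRC* (CD45), which is not specific to myeloid cells, was between 59.0 and 75.2 and between 219.1 and 442.0 CPM, respectively. *SPI1*, which encodes the myeloid transcription factor PU.1, was at 70.6 to 161.2 and 76.1 to 217.8 CPM.

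*CD34* was abundant in 6 libraries and nearly absent from the other 6. Libraries labelled Kasumi-1 siMM-mod had 397.7, 130.3 and 0.132 CPM of *CD34* in replicates 1, 2 and 3, and those labelled Kasumi-1 siRE-mod had 0.687, 0.117 and 0.695 CPM. Under the label SKNO-1 siMM-mod *CD34* was at 394.8, 355.8 and 124.6 CPM, and under SKNO-1 siRE-mod at 120.8, 0.124 and 0.459 CPM. By *CD34*, Kasumi-1 siMM-mod replicate 3 and SKNO-1 siRE-mod replicate 1 thus sat with the libraries of the other siRNA label in their line. Within the *CD34*-poor set the former, with 150.4 CPM, was among the 3 libraries with most *RUNX1T1*. Within the *CD34*-rich set the latter, with 127.5 CPM, was among the 3 with least. The highest value of *CD34* was 3388 times the lowest, and the gap between the sets, from 120.8 down to 0.695 CPM, was 174-fold.

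Read by *RUNX1T1*, *CD34* took 4 levels. In the *CD34*-rich libraries, the 3 with 253.9 to 308.8 CPM of *RUNX1T1* had 355.8 to 397.7 CPM of *CD34*, and the 3 with 79.2 to 134.0 CPM of *RUNX1T1* had 120.8 to 130.3 CPM, so that the nearest values differed 2.73-fold. The order was the opposite in the *CD34*-poor libraries. There, 150.4 to 173.6 CPM of *RUNX1T1* went with 0.117 to 0.132 CPM of *CD34*, and 41.3 to 52.7 CPM with 0.459 to 0.695 CPM, a gap of 3.49-fold. These low levels rest on 12, 13 and 14 counts against 60, 68 and 70 counts. *CD109*, whose pattern was the most like that of *CD34*, had 0 to 0.0541 CPM in these 6 libraries, and the part of reads carried over between libraries in the low *CD34* counts was not tested.

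*CD38* had the mirror image of *CD34* between the sets. Libraries labelled Kasumi-1 siMM-mod had 7.96, 8.47 and 201.4 CPM of *CD38*, and those labelled Kasumi-1 siRE-mod had 181.7, 235.0 and 179.4 CPM. Under the label SKNO-1 siMM-mod *CD38* was at 8.40, 7.59 and 9.36 CPM, and under SKNO-1 siRE-mod at 9.07, 217.9 and 201.9 CPM. All 6 libraries with little *CD38* were the *CD34*-rich ones, and the nearest values of the sets differed 19.2-fold. Within a set *CD38* varied little, from 7.59 to 9.36 CPM and from 179.4 to 235.0 CPM. In the *CD34*-rich libraries, the 3 with most *RUNX1T1* ended at 8.40 CPM and the other 3 began at 8.47 CPM, a ratio of 1.01. In the *CD34*-poor libraries the ranges by *RUNX1T1* overlapped.

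Levels of the 2 antigens were compared per exon length, in FPKM (CPM divided by the length of the exons). In the *CD34*-rich libraries *CD34* was at 13.1 to 43.1 FPKM and *CD38* at 1.11 to 1.37 FPKM. In the *CD34*-poor libraries *CD34* was at 0.0127 to 0.0754 FPKM and *CD38* at 26.2 to 34.3 FPKM. The ratio of *CD34* to *CD38* in FPKM was highest, 37.2, under the label Kasumi-1 siMM-mod replicate 1 and lowest, 0.000371, under Kasumi-1 siRE-mod replicate 2. In bulk RNA, fewer cells with a transcript and less transcript per cell cannot be told apart.

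**Figure D1:**
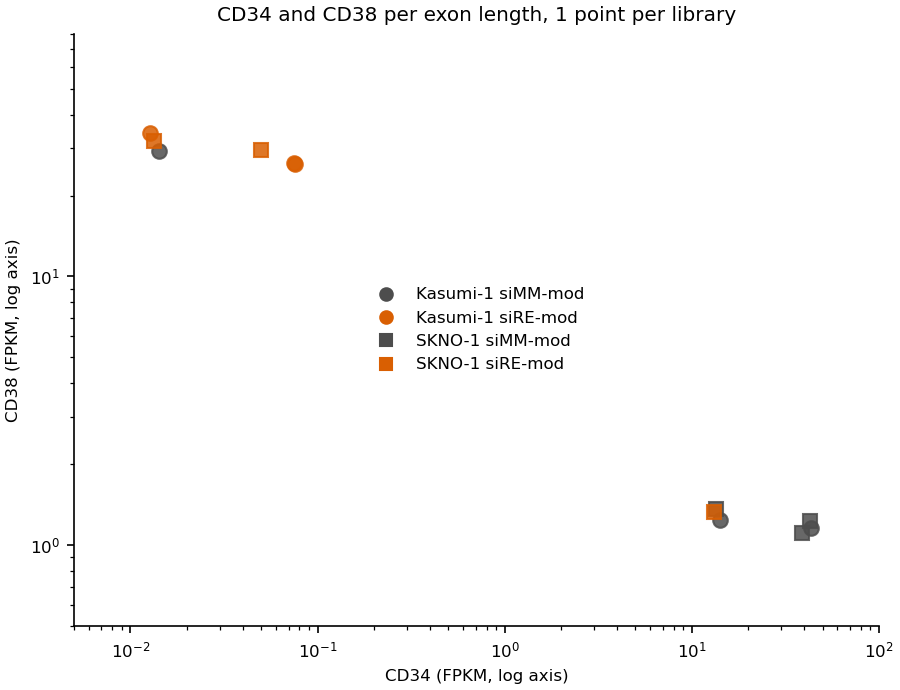
Levels of *CD34* (x axis) and *CD38* (y axis) in FPKM, both on log axes, with 1 point for each of the 12 libraries. Symbol shape gives the labelled line and colour the labelled siRNA. The 6 points at the lower right have 13.1 to 43.1 FPKM of *CD34* and the 6 at the upper left 26.2 to 34.3 FPKM of *CD38*, and both clusters include both shapes and both colours. The points of Kasumi-1 siRE-mod replicates 1 and 3 coincide.

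*CD33* was present in every library, at 33.0 to 75.1 CPM, and was split by *RUNX1T1* within each *CD34* set rather than by *CD34*. Libraries labelled siMM-mod had 36.0, 65.1 and 48.8 CPM of *CD33* in Kasumi-1 and 37.0, 33.0 and 75.1 CPM in SKNO-1. Those labelled siRE-mod had 73.5, 52.3 and 72.4 CPM in Kasumi-1 and 73.4, 45.2 and 74.2 CPM in SKNO-1. The ranges of the *CD34*-rich and *CD34*-poor libraries overlapped. In both sets *CD33* was lower in the 3 libraries with most *RUNX1T1*. These had 33.0 to 37.0 CPM against 65.1 to 75.1 CPM in the *CD34*-rich set, where the nearest values differed 1.76-fold. In the *CD34*-poor set they had 45.2 to 52.3 CPM against 72.4 to 74.2 CPM, a gap of 1.38-fold. CPM is scaled by the counts on genes alone, and the part of this scaling in the gaps was not tested.

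*PROM1* had 0 counts in all 12 libraries. A count of 0 allows up to 3 counts, which is 0.0203 to 0.0495 CPM depending on the depth of the library, and this limit covers counting error only. CD133 transcript was therefore not detectable at a depth at which *CD34* reached 30978 counts.

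*ANGPT1* ranged 662-fold over the 12 libraries, the widest range after that of *CD34*. Libraries labelled Kasumi-1 siMM-mod had 44.2, 2.36 and 0.405 CPM of *ANGPT1*, and those labelled Kasumi-1 siRE-mod had 0.137, 0.109 and 0.255 CPM. Under the label SKNO-1 siMM-mod it was at 49.2, 48.3 and 3.30 CPM, and under SKNO-1 siRE-mod at 3.68, 0.361 and 0.0743 CPM. In Kasumi-1 every library labelled siRE-mod was below every one labelled siMM-mod, and in SKNO-1 the labelled groups overlapped. By *CD34*, the lowest *CD34*-rich library had 5.83 times the *ANGPT1* of the highest *CD34*-poor one. Within the *CD34*-rich set, the 3 libraries with most *RUNX1T1* had 44.2 to 49.2 CPM and the other 3 had 2.36 to 3.68 CPM, so that the nearest values differed 12.0-fold, against 2.73-fold for *CD34* in the same libraries. In the *CD34*-poor set *ANGPT1* rested on 11 to 40 counts a library, and its ranges by *RUNX1T1* overlapped. Its receptor gene *TEK* did not exceed 0.215 CPM in any library.

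**Figure D2:**
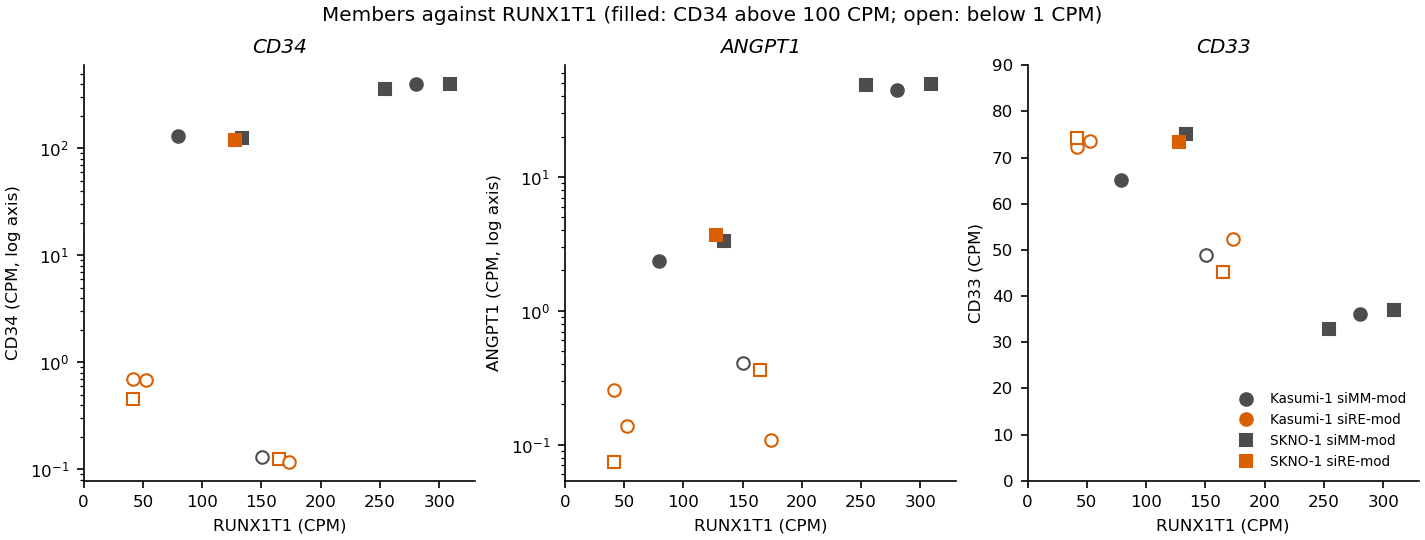
*CD34*, *ANGPT1* (both in CPM on log axes) and *CD33* (CPM on a linear axis) against *RUNX1T1* (CPM), with 1 point for each of the 12 libraries. Shape gives the labelled line, colour the labelled siRNA, filled symbols *CD34* above 100 CPM and open symbols *CD34* below 1 CPM. Among the filled symbols *ANGPT1* goes from 2.36 to 3.68 CPM up to 44.2 to 49.2 CPM. In both sets *CD33* lies lower in the 3 libraries with most *RUNX1T1*.

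*MSI2* was the steadiest of the markers. Libraries labelled siMM-mod had 98.5, 65.1 and 66.3 CPM of *MSI2* in Kasumi-1 and 110.9, 94.2 and 102.9 CPM in SKNO-1. Those labelled siRE-mod had 101.0, 85.4 and 86.2 CPM in Kasumi-1 and 102.7, 84.5 and 69.4 CPM in SKNO-1. The highest value was 1.70 times the lowest, and the ranges overlapped by label, by *CD34* and, within each *CD34* set, by *RUNX1T1*. *NUMB*, an mRNA that MSI2 binds, was as even at 43.6 to 59.7 CPM, and the paralog *MSI1* did not exceed 0.0330 CPM.

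The transcription regulators were close to absent. *MN1* had between 3 and 23 counts a library, 0.0294 to 0.380 CPM. The *CD34*-rich libraries had 0.147 to 0.380 CPM of *MN1* and the *CD34*-poor ones 0.0294 to 0.0811 CPM, so that the nearest values differed 1.82-fold at single or double digits of counts. *MEIS1* was at 0 in 7 libraries and had 29 counts over all 12, with at most 12 counts, 0.184 CPM, in that labelled SKNO-1 siRE-mod replicate 1. All 5 libraries with a *MEIS1* count were *CD34*-rich. *MEIS1* shares 1437 bases of exon, 13.1% of its own, with the antisense gene *MEIS1-AS2*, which had 0 counts. Of the partner genes, *HOXA9* did not exceed 0.710 CPM and *PBX3* did not exceed 0.394 CPM. *MEIS2*, a paralog of *MEIS1*, was at 20.1 to 30.1 CPM in the *CD34*-rich and at 56.4 to 80.6 CPM in the *CD34*-poor libraries.

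*SPINK2* was also near the limit of detection, with 106 counts over the 12 libraries and between 0 and 35 counts in one. Its highest level was 0.381 CPM, under the label Kasumi-1 siMM-mod replicate 2. Its ranges overlapped by *CD34* and, within each set, by *RUNX1T1*.

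**Figure D3:**
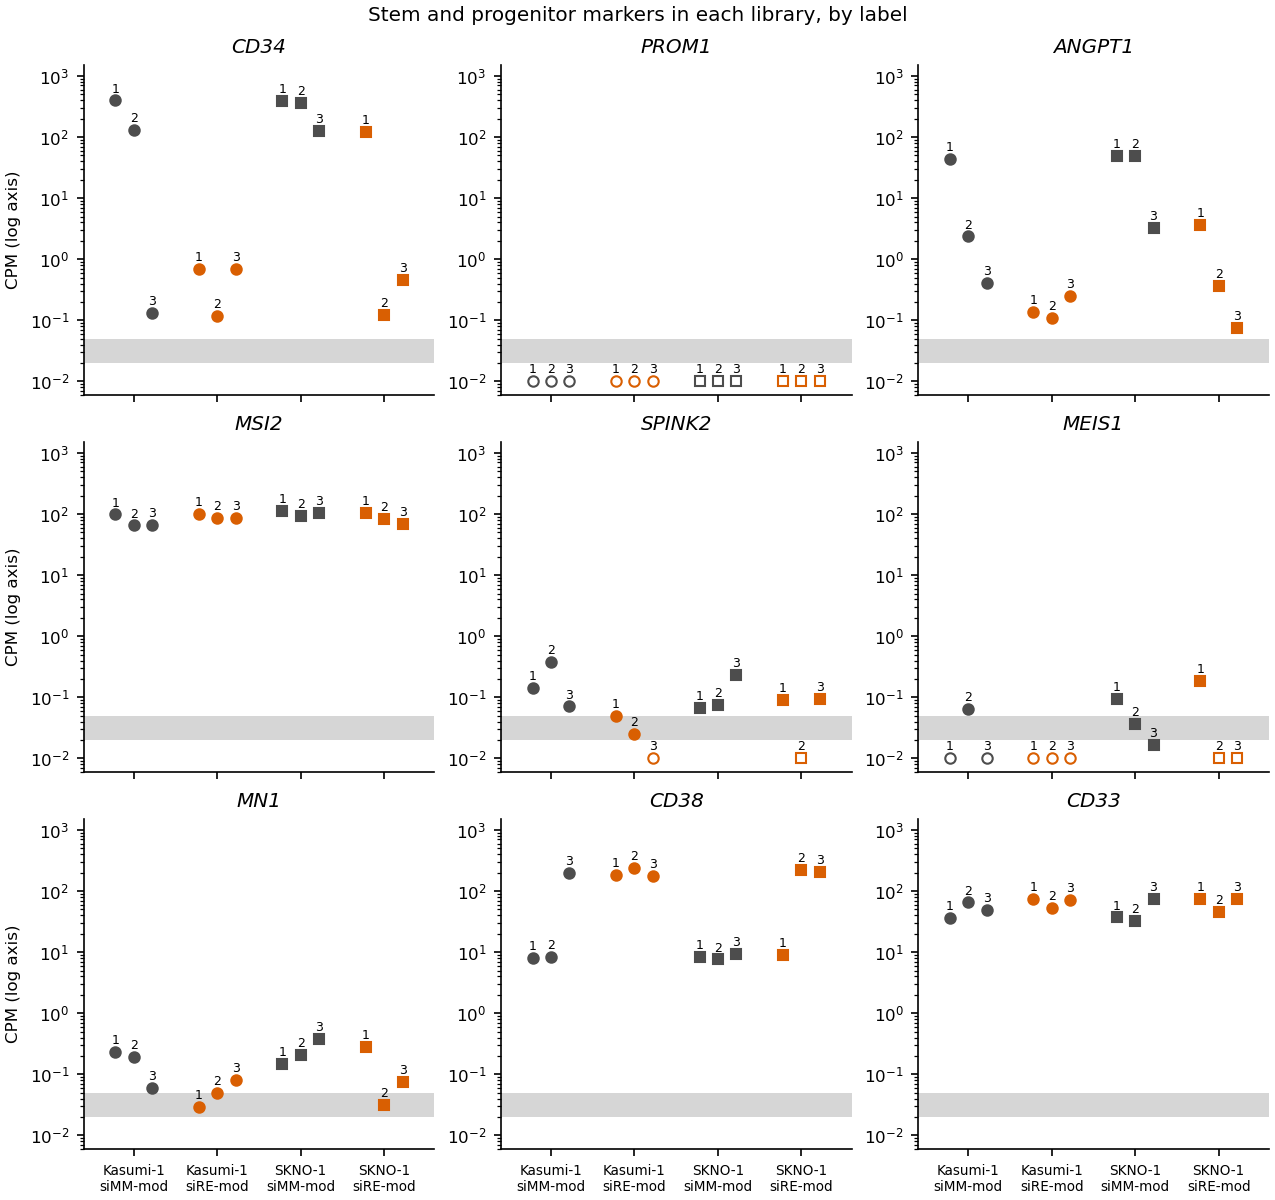
Level of each of the 9 markers in CPM (log axis) in the 12 libraries, by labelled line and siRNA, with the replicate number above each point. Open symbols drawn at 0.01 CPM are values of 0, and the grey band spans what 3 counts amount to in the libraries, 0.0203 to 0.0495 CPM. *CD34* and *CD38* split the groups labelled Kasumi-1 siMM-mod and SKNO-1 siRE-mod, whereas *MSI2* and *CD33* stay between 33.0 and 110.9 CPM.

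The question of the labels, whether the siRE-mod and siMM-mod libraries differ, was tested for the 5 markers with at least 600 reads over the libraries of a fit (*CD34*, *ANGPT1*, *MSI2*, *CD38* and *CD33*). The other 4 were below that filter. With no filter except 1 read, 8 of the 9 were tested in each comparison, all but *PROM1*, and 0 passed. None of the 5 passed an adjusted p of 0.05 in either line with edgeR's quasi-likelihood test, in which 0% of 13608 genes in Kasumi-1 and 0% of 13628 in SKNO-1 passed. At an unadjusted p under 0.05 there were 2 markers and 2435 genes in Kasumi-1, and 2 markers and 1455 genes in SKNO-1. Nothing states that the replicates came from separate cultures, so the p-values measure the spread between these libraries, whose source was not tested. Under the labels Kasumi-1 siMM-mod and SKNO-1 siRE-mod this spread includes that between the *CD34* sets. Correlations within a label went from 0.801 to 0.995, against 0.798 to 0.837 for 1 library of each set.

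*CD34* had a mean of 176.0 ± 202.7 CPM (SD, n = 3) under Kasumi-1 siMM-mod and 0.500 ± 0.331 under Kasumi-1 siRE-mod. The siRE-mod label was at −8.79 on the log2 scale (standard error 2.56, adjusted p = 0.252, edgeR). In SKNO-1 the means of *CD34* were 291.7 ± 146.0 and 40.4 ± 69.6 CPM (SD, n = 3), and the log2 fold change was −2.99 (standard error 2.17, adjusted p = 0.624, edgeR). For *ANGPT1*, Kasumi-1 gave a log2 fold change of −6.82 with a standard error of 1.93 (edgeR, adjusted p = 0.252). The SKNO-1 value of *ANGPT1* was −4.80 with an error of 1.72 (edgeR, adjusted p = 0.466). For *CD38*, Kasumi-1 gave 1.21 with an error of 1.26 (edgeR, adjusted p = 0.603), and SKNO-1 gave 3.96 with an error of 1.06 (edgeR, adjusted p = 0.466). *CD33* and *MSI2* had values close to 0. In Kasumi-1 *CD33* was at 0.08 (standard error 0.28, edgeR, adjusted p = 0.889), and SKNO-1 gave 0.33 (0.33, adjusted p = 0.734). The values of *MSI2* in the 2 lines were −0.06 and −0.38 (standard errors 0.18 and 0.21). The mean CPM of *MSI2* in Kasumi-1 went the other way, 76.7 ± 18.9 under siMM-mod and 90.9 ± 8.79 under siRE-mod (SD, n = 3).

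The labelled groups did not overlap for 1 of the 5 tested markers in Kasumi-1, *ANGPT1*, where this held for 35.3% of all genes tested, and for 1 of 5 in SKNO-1, *CD34*, where it held for 11.1%. The calls changed with single libraries and with the tool. When Kasumi-1 siMM-mod replicate 3 was left out, *CD34*, *ANGPT1* and *CD38* passed edgeR's test in Kasumi-1 (log2 fold changes −9.38, −7.40 and 4.27), as did 32.2% of the genes tested. When SKNO-1 siRE-mod replicate 1 was left out, *CD34*, *ANGPT1* and *CD38* passed in SKNO-1 (−10.09, −7.50 and 4.51), as did 19.3% of the genes. Each of these fits sets *CD34*-poor libraries labelled siRE-mod against *CD34*-rich ones labelled siMM-mod, so that the siRNA label and the *CD34* set cannot be told apart in it. DESeq2 on all libraries called *CD34* and *ANGPT1* in Kasumi-1, where it called 8.55% of genes, and *CD38* in SKNO-1, where it called 2.73%. It gave no p for *CD38* in Kasumi-1 or *CD34* in SKNO-1.

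**Figure D4:**
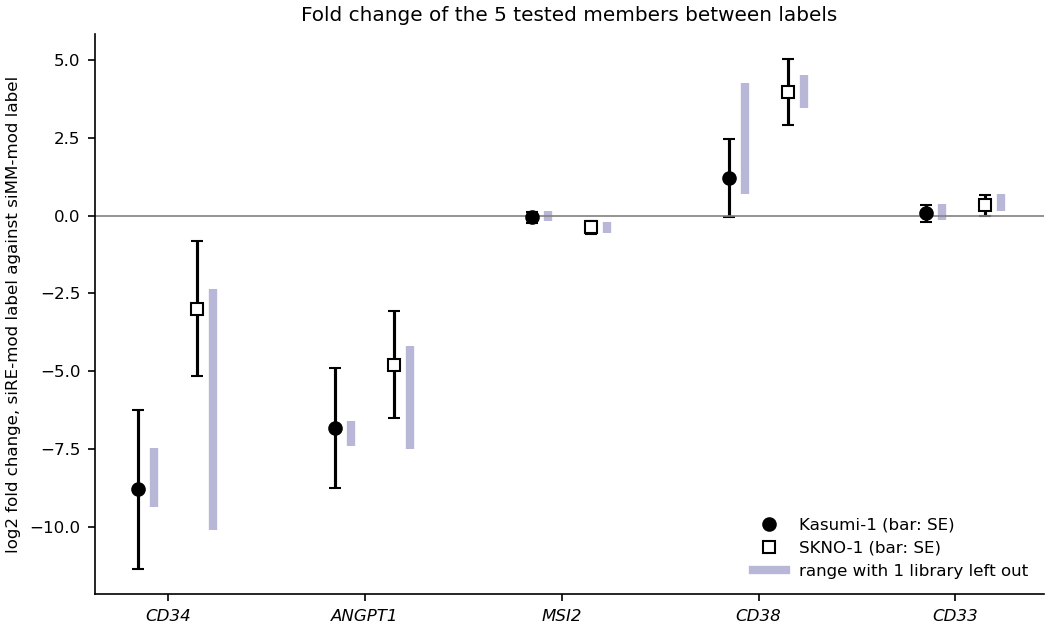
Log2 fold change of the libraries labelled siRE-mod against those labelled siMM-mod (y axis) for the 5 markers tested, from edgeR, in Kasumi-1 (filled circles) and SKNO-1 (open squares). Black bars are standard errors, and violet bars span the values with each library left out in turn, for *CD34* in SKNO-1 from −10.09 to −2.36. The bars of *MSI2* and *CD33* lie near 0, and those of *CD34* and *ANGPT1* below it.

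Between the lines, the response to the label was compared as an interaction of line and siRNA over the 12 libraries, in which 0% of 15863 genes and 0 of the 5 markers passed (106 genes at an unadjusted p under 0.05). *CD34* had a log2 difference of 5.76 (standard error 3.22) and *CD38* one of 2.80 (1.73). When SKNO-1 siRE-mod replicate 1 was left out, the value of *CD34* was −1.30, and with the replicate number as a block it was 0.49. In the level of the libraries labelled SKNO-1 against those labelled Kasumi-1, 0% of 15863 genes and 0 of 5 markers passed (2048 genes at an unadjusted p under 0.05). There *CD34* was at 3.62 on the log2 scale (standard error 1.66, adjusted p = 0.376, edgeR) and *CD38* at −1.73 (standard error 0.87, adjusted p = 0.379, edgeR). With 1 library left out, the value of *CD34* ranged from 0.09 to 4.28 and that of *CD38* from −1.99 to −0.22. The values of *MSI2* and *CD33* were 0.22 and −0.03 (standard errors 0.13 and 0.22).

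The genes most like a marker were found for the 3 with a range of at least 2 on the log2 scale, by the root mean square difference of centred log2 CPM over the 12 libraries among 15863 genes. *CD109*, a surface glycoprotein, was nearest to *CD34* (0.625), with 12.97 to 46.0 CPM in the *CD34*-rich libraries. *TCAF1* (0.747) and *CRISPLD1* (0.803) came next, at 24.2 to 28.4 and 13.9 to 15.0 CPM in the same libraries. For *ANGPT1* the nearest were *TDRD9* (0.809), *SH3TC2* (0.849) and *SULT1C2* (0.892), none of them above 6.19 CPM. For *CD38* they were *IL1RAP* (0.236), which encodes the accessory protein of the IL-1 receptor, *EPS8* (0.279) and *ZBTB46* (0.288). *IL1RAP* was at 12.8 to 19.1 CPM in the *CD34*-rich and 434.8 to 537.2 CPM in the *CD34*-poor libraries. The 12 values of each gene come from the same libraries, whose profiles fall into the sets given above, so the likeness is a description only.

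Other genes known from stem and progenitor cells were read as a list of 25. Between the labels, 0 of the 17 tested passed in either line. Their median log2 fold changes were −0.43 (Kasumi-1) and −0.36 (SKNO-1), beside 0.02 and 0.03 for all genes tested. *KIT*, the stem cell factor receptor, was the most abundant and was ordered by *CD34* and by *RUNX1T1*. It had 847.5 to 936.1 and 670.7 to 733.2 CPM in the *CD34*-rich libraries with more and less *RUNX1T1*, and 465.8 to 556.2 and 111.2 to 130.8 CPM in the *CD34*-poor ones. *SOX4* (173.6 to 230.3 CPM), *CD164* (150.9 to 194.8 CPM) and *IGF2BP2* (124.8 to 187.6 CPM) varied far less. Of the 25 genes, 14 had at least 1 CPM in all 12 libraries and 5 in none.

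The 16 genes other than *CD34* of the LSC17 score, a signature of leukaemic stem cells, were read next, without the weights of the score, which was not computed. Their summed level was 853.5 to 1014 CPM in the *CD34*-rich and 1105 to 1478 CPM in the *CD34*-poor libraries, most of it from *CDK6* and *LAPTM5*, whose means over the 12 libraries were 767.7 and 211.1 CPM. *DNMT3B*, a DNA methyltransferase, went the other way, at 17.3 to 20.5 and 4.56 to 10.3 CPM, as did *ARHGAP22* at 12.9 to 16.6 and 4.09 to 7.75 CPM. *SOCS2*, an inhibitor of cytokine signalling, was at 10.7 to 13.2 and 53.2 to 90.6 CPM in these sets. *LAPTM5*, a lysosomal protein of blood cells, was lower where *RUNX1T1* was higher among the *CD34*-rich libraries. It was at 30.6 to 40.6 CPM in those with more *RUNX1T1* and 180.7 to 274.4 CPM in those with less. *CDK6*, a cell cycle kinase, was at 551.0 to 1143 CPM and *SMIM24* at 3.88 to 39.1 CPM over the 12 libraries. Between the labels, 0 of the 10 tested passed in either line, with medians of 0.47 and 1.44 on the log2 scale.

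Among 23 partners, paralogs and targets of the markers, 0 of 12 tested passed in either line, with medians of 0.20 and 0.31. *PTPN6*, which encodes the phosphatase SHP-1 that CD33 recruits, was at 50.4 to 101.8 CPM in the *CD34*-rich and 218.4 to 553.3 CPM in the *CD34*-poor libraries. In both sets it was lower where *RUNX1T1* was higher, as *CD33* was. *PTPN11* (SHP-2), recruited by CD33 as well, varied from 202.3 to 304.2 CPM.

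Genes of myeloid maturation were read because CD34+ cells lose CD34 as they mature. Of 18 such genes, 0 of 14 tested passed in Kasumi-1 and 0 of 13 in SKNO-1, with medians of −1.45 and −0.75 between the labels. Values above 0 were found for 3 of the 14 and 5 of the 13. Genes of the primary granules, *MPO* given above among them, were higher in the *CD34*-rich libraries. *PRTN3* (proteinase 3) was at 1041 to 2874 against 12.9 to 29.7 CPM, and *ELANE* (neutrophil elastase) at 501.5 to 1684 against 58.4 to 122.8 CPM. *CSF3R*, the receptor of G-CSF, was at 366.6 to 545.2 and 68.4 to 257.2 CPM. The summed level of the list was 11969 to 26758 CPM in the *CD34*-rich and 2161 to 6297 CPM in the *CD34*-poor libraries, most of it from *MPO*, whose mean over the 12 libraries was 8292 CPM. Some genes of the list did not share this order. *CD86* was at 0.0165 to 0.345 and 1.38 to 3.02 CPM. The ranges of the integrins *ITGAM* (0.197 to 3.05 and 0.789 to 4.15 CPM) and *ITGAX* (1.44 to 2.52 and 1.14 to 4.69 CPM) overlapped between the sets.

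Sums of 3 of the 4 lists of other cell types were higher in the *CD34*-poor libraries without overlap, those of eosinophils and mast cells overlapped, and their part in the values of the markers was not tested. In all 4 such lists 0 genes passed between the labels. The 11 eosinophil and mast cell genes summed to 28.1 to 331.0 CPM in the *CD34*-rich and 76.4 to 539.6 CPM in the *CD34*-poor libraries. Of these, *IL5RA* did not exceed 0.184 CPM in the former and was at 36.4 to 70.4 CPM in the latter. *PRG2*, *RNASE2* and *CPA3* were separated by *RUNX1T1* within both sets, with *PRG2* at 0.205 to 0.254 against 164.7 to 173.8 CPM in the *CD34*-rich libraries with more and less of it. The 9 erythroid and megakaryocyte genes summed to 7.63 to 9.16 and 59.0 to 107.5 CPM, of which *ITGA2B* made up most, at 1.318 to 2.46 and 53.4 to 100.6 CPM, while *EPOR*, *KLF1* and *HBA1* did not exceed 6.25, 2.44 and 0.297 CPM and *PF4* was at 0 in all 12 libraries. The 11 lymphoid genes summed to 77.4 to 116.4 and 244.0 to 389.0 CPM, carried by *CD4* (64.5 to 89.97 and 236.0 to 383.6 CPM), which myeloid cells also express, while *PAX5*, *NKG7* and *CD79A* did not exceed 10.7, 16.6 and 2.75 CPM and *MS4A1* was at 0 throughout. The 10 stromal and endothelial genes summed to 4.10 to 9.18 and 17.2 to 21.3 CPM, with *PECAM1* at 2.34 to 7.72 and 11.9 to 18.4 CPM, *KDR*, *LEPR* and *VWF* at no more than 3.06, 1.52 and 3.27 CPM and *COL1A2* at 0 throughout.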

How the data were processed

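RNA-seq libraries were grouped by the labels into line and siRNA. The authors trimmed reads with Trim Galore 0.6.5, aligned them to GRCh38 with STAR 2.7.10a and deposited counts over the exons of each gene, 1 table per library, for which the headers name Rsubread 1.32.4 under R 3.5.1 and the submitters' processing notes Subread 1.6.5. The strand setting is not given in the sources used here. The same deposited tables hold CPM (scaled by the counts on genes) and FPKM (CPM per kilobase of exon), which were used for levels. The in vivo tables deposited by the authors hold counts in the layout of HTSeq. Depth ranged from 60559466 to 147990959 counts on genes per in vitro library.

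Counts were fitted with edgeR 4.0.16 in R 4.3.3 (TMM, robust glmQLFit, glmQLFTest) on genes with at least 600 reads over the libraries of the fit, the filter of the study, and adjusted by Benjamini-Hochberg over all genes tested at 0.05. The procedure was tested on simulated counts with a dispersion (spread beyond counting error) of 0.02. The common dispersion of the fits was higher, from 0.197 (Kasumi-1) to 0.246 (SKNO-1). The simulation therefore cannot show how many changes the fits would miss at their own spread. With 3 libraries against 3, no exact permutation test of a single gene can fall below 0.1, so none was used. No 2 libraries agreed within sampling noise, since the lowest chi-square per gene of any pair was 26.2. Alternatives were DESeq2 1.42.0 (the study's tool), its size factors in edgeR, other filters, all 12 libraries in one fit, the replicate number as a block, and each library left out.

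The markers and the lists were chosen with earlier results of these data known. Named genes are the 9 markers, *RUNX1T1*, the 4 genes of highest mean CPM of each list, and the 3 genes most like each marker with a log2 range (prior count 2) of at least 2. *PTPRC* and *SPI1* were fixed in a list of markers of myeloid leukaemia cells. Other list genes, named as receptors, partners or paralogs of a marker, as lineage-defining, at 0 or going against their list, were chosen after their values were seen. Python 3.11.15 with numpy 2.4.6, pandas 2.3.3 and matplotlib 3.10.9 was used for tables and figures.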

Additional observations from a re-analysis of the deposited data

How the results depend on the processing

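Values are log2 fold changes of the 5 tested markers and *RUNX1T1* in the 4 comparisons. Of 215 values with 1 library left out, 191 kept direction and side of the threshold, 18 changed sign and 6 passed the threshold. Of 132 under other alternatives the numbers were 123, 2 and 3, and 4 from DESeq2 had no adjusted p (*CD38* in Kasumi-1, in the difference and in the lines' levels, and *CD34* in SKNO-1). For Kasumi-1, SKNO-1, their difference and the lines' levels, where edgeR found 0 genes, DESeq2 found 1163, 372, 118 and 366, with 2, 1, 0 and 0 markers among them. It called *CD34* (−8.81) and *ANGPT1* (−6.85) in Kasumi-1 and *CD38* (3.93) in SKNO-1. With 1 library left out, called genes ranged from 0 to 4250 in Kasumi-1, from 0 to 2535 in SKNO-1 and from 0 to 7 between the lines' levels (7 when SKNO-1 siRE-mod replicate 3 was dropped), with 0 to 3 markers called in each line and 0 between the lines. The log2 fold change then ranged from −9.38 to −7.47 for *CD34*, −7.40 to −6.60 for *ANGPT1*, 0.68 to 4.27 for *CD38*, −0.17 to 0.13 for *MSI2* and −0.13 to 0.38 for *CD33* in Kasumi-1. *ANGPT1* has no value when Kasumi-1 siMM-mod replicate 1 is dropped, as its reads then fall below 600. In SKNO-1 the ranges were −10.09 to −2.36, −7.50 to −4.19, 3.45 to 4.51, −0.55 to −0.21 and 0.16 to 0.69 in the same order. *MSI2* (0.13) and *CD33* (−0.13) changed sign in Kasumi-1 when siMM-mod replicate 1 was dropped.

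The difference between the lines ranged with 1 library left out from −1.30 to 6.35 for *CD34*, −1.39 to 2.56 for *ANGPT1*, −0.33 to 3.34 for *CD38*, −0.040 to 0.61 for *CD33* and −0.54 to 0.97 for *RUNX1T1*, and *CD33* between the lines' levels from −0.20 to 0.12. The causes of these changes of sign were not tested. Same-numbered libraries had correlations of deviations of −0.018, −0.272 and −0.013 (Kasumi-1) and −0.133, −0.021 and −0.246 (SKNO-1). They share only a number and are not paired. With the replicate number as a block, 0 genes were called in each comparison (1763, 1133, 21 and 1830 at an unadjusted p under 0.05). The block gave −8.08 and −7.64 for *CD34* in Kasumi-1 and SKNO-1 and 0.49 for their difference, and changed the sign of the difference between the lines for *ANGPT1* (−0.71) and *RUNX1T1* (0.14). *MEIS1*, *MN1* and *SPINK2*, below 600 reads, were tested with no filter except 1 read and in part with filterByExpr, where 0 passed.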
